A study of Mus musculus with 9 samples.

Results

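The 10 core genes of the circadian clock, Arntl, Clock, Npas2, Cry1, Cry2, Per1, Per2, Per3, Nr1d1 and Nr1d2, were taken by gene symbol from a liver RNA-seq table of 57010 genes, and all 10 had enough counts to be tested. The libraries came from livers of male BALB/c mice in 3 groups of 3. The CON group received no treatment per the labels, and the CPT livers were acutely injured with cisplatin, a DNA-binding platinum compound used in chemotherapy. The AT3 group carries the same treatment label as CPT, its abbreviation is not spelled out in the labels, and atractylenolide III, a sesquiterpene lactone found in plants, appears in the title of the series. The sources used here give no dose, route, time after injection or hour of tissue collection. They also do not state that libraries of 1 group are separate animals, and the spread behind each p-value is that between libraries and may be technical.

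The clock is a feedback loop of transcription. ARNTL (BMAL1) pairs with CLOCK or its paralog NPAS2, and the pair binds E-box sequences and switches on the Per, Cry and Nr1d genes. PER and CRY proteins return to the nucleus and repress the pair, while the nuclear receptors REV-ERB alpha and beta, products of Nr1d1 and Nr1d2, repress Arntl, Npas2, Clock and Cry1 through elements that ROR receptors use for activation. In mouse liver the loop makes Arntl, Npas2 and Clock transcripts high around dawn, Nr1d1, Nr1d2 and Per3 high by day, Per1, Per2 and Cry2 high around dusk and Cry1 high late at night. Each library is 1 time point of that cycle, and its hour is not known.

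Sequences before the transcription start are shown because the members share the elements through which the loop acts. A RefSeq table of promoters (build GRCm38.p6) held 9 of the 10 members, all but Per2, with 13 start sites in all. Exact matches on either strand were searched in the 250 bases before each start. The E-box CACGTG was in 6.02% of the 32851 windows of the table and in 2 of the member windows, 60 bases before a Cry1 start and 166 bases before a Per1 start. The nuclear receptor core AGGTCA, part of the element that ROR and REV-ERB bind, was in 14.0% of all windows and in 3 member windows, those of Clock, Nr1d2 and Per1. The D-box TTATGTAA or TTACGTAA, bound by DBP and NFIL3, was in 0.931% of all windows and in 1 member window, with 2 copies before Per3. The cAMP element TGACGTCA was in 1.55% of all windows and in 0 of the member windows. The sequences are written 5′ to 3′ in the direction of the gene, with the matches in capitals. They are the Cry1 window at chr10:85185055-85185304 on the minus strand, the Per1 window at chr11:69098699-69098948 on the plus strand, the Per3 window at chr4:151044666-151044915 on the minus strand and the Nr1d2 window at chr14:18239107-18239356 on the minus strand. The last line is a 30-base stretch of the Arntl transcript at chr7:113207530-113207559 on the plus strand. There AGGTCA begins at base 32 after the Arntl start whose 250-base window ends at chr7:113207510. It was looked for there after the values were seen, and 16.3% of all windows of 300 bases hold the hexamer.
Cry1: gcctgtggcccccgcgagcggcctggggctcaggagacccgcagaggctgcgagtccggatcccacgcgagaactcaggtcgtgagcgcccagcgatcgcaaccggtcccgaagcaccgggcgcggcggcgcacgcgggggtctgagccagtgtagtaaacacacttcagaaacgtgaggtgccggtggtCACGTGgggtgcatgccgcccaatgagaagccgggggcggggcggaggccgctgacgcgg
Per1: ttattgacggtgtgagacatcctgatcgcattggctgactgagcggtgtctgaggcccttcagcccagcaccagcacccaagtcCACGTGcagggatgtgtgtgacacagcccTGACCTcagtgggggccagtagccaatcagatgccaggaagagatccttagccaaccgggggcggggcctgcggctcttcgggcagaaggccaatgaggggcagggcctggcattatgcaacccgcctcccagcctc
Per3: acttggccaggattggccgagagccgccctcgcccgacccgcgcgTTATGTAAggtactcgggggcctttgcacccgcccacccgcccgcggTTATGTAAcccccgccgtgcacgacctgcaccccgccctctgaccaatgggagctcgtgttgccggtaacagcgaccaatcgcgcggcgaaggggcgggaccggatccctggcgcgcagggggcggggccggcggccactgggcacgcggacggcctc
Nr1d2: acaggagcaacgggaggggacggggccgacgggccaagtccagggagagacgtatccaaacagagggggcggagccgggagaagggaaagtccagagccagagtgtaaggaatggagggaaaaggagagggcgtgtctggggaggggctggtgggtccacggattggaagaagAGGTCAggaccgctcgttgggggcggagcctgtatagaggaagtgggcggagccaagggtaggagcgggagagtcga
Arntl: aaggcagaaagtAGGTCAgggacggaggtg
A match describes these letters in this window, and the absence of one says nothing of the factor.

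The libraries held 21485021 to 28480479 estimated counts. Levels are given as CPM, a count rate on library sizes scaled by TMM, with means ± SD over n = 3 libraries, and 3 counts are worth 0.0934 to 0.169 CPM. Fold changes are from edgeR's quasi-likelihood test over all 9 libraries, with Benjamini-Hochberg adjustment over 13686 genes and calls at an adjusted p under 0.05. Most genes moved between untreated and injured liver, so a call there is common: 60.8% of tested genes were called in CPT against CON, 64.4% in AT3 against CON and 4.68% in AT3 against CPT. The 3 comparisons share libraries, so they are not independent of each other. Cell type markers also moved. The summed level of 8 hepatocyte markers ranged over 70147 to 74484 CPM in CON, from 50082 to 68173 in CPT and from 80224 to 86372 in AT3. The 8 sinusoidal endothelial markers summed to 108 to 112 CPM in CON, from 20.1 to 28.7 in CPT and from 24.4 to 29.1 in AT3, and the 8 stellate cell and fibroblast markers to 345 to 413, 67.3 to 75.9 and 45.8 to 59.4. The 8 Kupffer cell markers summed to 35.8 to 48.9, 19.0 to 23.3 and 21.0 to 25.3 CPM, the 8 neutrophil markers to 4.08 to 4.95, 23.9 to 50.1 and 12.1 to 13.4, and the 5 erythroid markers to 797 to 908, 42.7 to 50.9 and 38.4 to 44.5. No marker was at 0 in all libraries. Markers of 1 list did not all move alike. In CPT against CON 2 hepatocyte markers were called higher and 3 lower, and in AT3 against CON 5 higher and 2 lower. Of the Kupffer cell markers, 1 was higher and 4 were lower in each of these comparisons. In bulk liver, fewer cells of a type and less RNA per cell cannot be told apart. Mitochondrially encoded transcripts took 25.8 to 36.8% of counts in CON, from 11.2 to 16.3% in CPT and from 9.79 to 11.4% in AT3. The part of these shifts in the clock genes' values was not tested.

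In injured liver the clock genes did not move one way. Of the 10 members, 5 were higher in CPT than in CON (Per1, Per2, Cry1, Cry2 and Nr1d2), 4 were lower (Arntl, Clock, Npas2 and Nr1d1) and Per3 was not called. The background was 30.0% of tested genes higher and 30.8% lower. The libraries of CPT and CON did not overlap for 9 of the 10, against 64.2% of all tested genes. The members' median log2 fold change was 0.29, beside -0.02 for all tested genes. In AT3 against CPT 5 members were called, against a background of 4.68%: Arntl, Clock and Cry1 were higher (2.46% of all genes were) and Nr1d1 and Nr1d2 were lower (2.22%). The 2 groups did not overlap for 7 members, the 5 called and Cry2 and Per3, against 27.0% of all genes. The median was 0.12, beside 0 for all genes. The count of 5 was 2 without AT3 replicate 1, 3 without CPT replicate 2, AT3 replicate 2 or AT3 replicate 3, and 6 without CPT replicate 3. Calls over all tested genes, 641 in the main fit, were 178, 229, 172, 228 and 1316 in these fits, in that order. Those fits tested 14085 to 14185 genes. On log2(TPM + 1) the count of members called was 2, Arntl and Cry1, with 45 of all tested genes called.

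**Figure D1:**
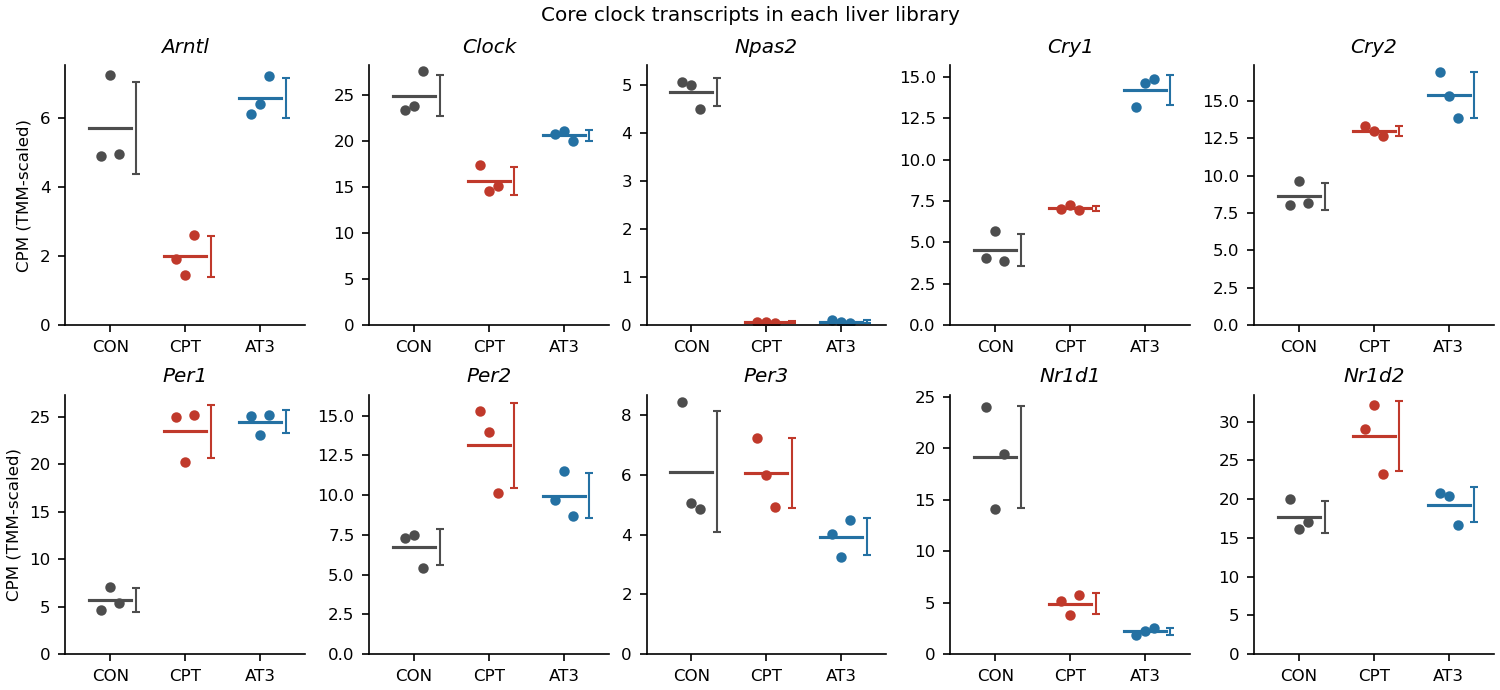
CPM of each core clock transcript (vertical axis, TMM-scaled, each panel from 0) in CON, CPT and AT3 libraries; points are libraries, horizontal lines group means and bars beside them the SD (n = 3). Npas2 lies near 5 CPM in CON and near 0 in both other groups, Per1 is high in both, and Arntl is low in CPT alone.

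Arntl (ENSMUSG00000055116, chr7:113207465-113314126, plus strand, GRCm38) encodes BMAL1, the partner of both CLOCK and NPAS2. Its CPM was 4.89, 7.22 and 4.95 in the CON libraries, 1.91, 1.43 and 2.61 in CPT and 6.10, 6.39 and 7.20 in AT3. CPT lay below both other groups without overlap, and the AT3 libraries lay inside the CON range. Arntl fell 2.92-fold in CPT against CON (log2 fold change -1.55 ± 0.22 (SE), edgeR adjusted p = 1.77e-05). It was 3.33-fold higher in AT3 than in CPT (1.74 ± 0.21, adjusted p = 0.000597), and stayed called with any 1 library left out (1.54 to 1.98). AT3 and CON differed by 0.19 on the log2 scale (95% interval -0.24 to 0.62, adjusted p = 0.405), which does not show that they were equal. On log2(TPM + 1) that last difference was 0.57 with a limma adjusted p of 0.0107. The median gene stood 0.32 higher in AT3 than in CON on that scale.

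Clock (ENSMUSG00000029238, chr5:76209868-76304792, minus strand) encodes the histone acetyltransferase partner of BMAL1. It stood at 23.4, 23.9 and 27.6 CPM in CON, at 17.4, 14.6 and 15.1 in CPT and at 20.8, 21.2 and 19.99 in AT3. No group overlapped another, with AT3 between CON and CPT. The fall in CPT against CON was 1.59-fold (log2 -0.67 ± 0.10, edgeR adjusted p = 4.73e-05), and on log2(TPM + 1) it was -0.05 with an adjusted p of 0.692, where the median of all genes was 0.29 higher in CPT. Clock was 0.40 ± 0.10 higher in AT3 than in CPT (adjusted p = 0.0399). That call was lost without CON replicate 1, without CPT replicate 2 or 3 and without each of the AT3 libraries, with adjusted p between 0.0556 and 0.150. Against CON, AT3 was lower by CPM (-0.27 ± 0.10, adjusted p = 0.0286) and higher on log2(TPM + 1) (0.27, adjusted p = 0.0479), where the median of all genes was 0.32 higher. The CPM call was lost without CON replicate 3, CPT replicate 1 or any 1 AT3 library, with adjusted p between 0.0627 and 0.147. It was also lost with DESeq2 (-0.25, adjusted p = 0.0600) and in edgeR with no filter on low counts (-0.18, adjusted p = 0.259).

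Npas2 (ENSMUSG00000026077, chr1:39193731-39363236, plus strand) encodes the paralog that can stand in for CLOCK. It was counted 90, 127 and 80 times in the CON libraries, 2, 2 and 1 times in CPT and 3, 2 and 1 times in AT3. In CPM that was 5.06, 4.99 and 4.50 in CON, against at most 0.0707 in CPT and 0.0984 in AT3. All libraries of both injured groups were at or below the level of 3 counts. From the summed counts the level was 84.1-fold lower in CPT than in CON (exact 95% binomial interval 35.6 to 261) and 73.2-fold lower in AT3 than in CON (33.3 to 201). These intervals cover counting error only. The edgeR adjusted p was 1.52e-09 and 1.27e-09. At this depth AT3 and CPT were not distinguishable (ratio 1.15, interval 0.292 to 4.76). Arntl and Npas2 are both dawn-high in mouse liver. In AT3 Arntl was at 6.57 ± 0.568 CPM and Npas2 at 0.0656 ± 0.0314, and the cause of that difference was not tested.

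Genomic span is given beside these values because it differs widely between members. Npas2 spans 170 kb, Arntl 107 kb and Clock 94.9 kb, while the other members span 7.40 kb (Nr1d1) to 53.4 kb (Cry1). In CPT against CON the median log2 fold change of all tested genes was 0.09 for the 6677 genes under 20 kb, 0.01 for 4064 genes of 20 to 60 kb, -0.20 for 1605 genes of 60 to 120 kb and -0.59 for 1085 genes over 120 kb. Of the genes over 120 kb 54.4% were called lower, as were 38.6% of those of 60 to 120 kb and 26.5% of those under 20 kb. The 3 longest members were the 3 activator genes, and each was lower. Nr1d1, the shortest member, was also lower. In AT3 against CPT the medians of the 4 span classes lay between -0.03 and 0.05, and Arntl was higher by 1.74. The part of span in the members' values was not tested.

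Among the Per and Cry genes, Per1 (ENSMUSG00000020893, chr11:69095217-69109960, plus strand) had the largest fold changes against CON. Its product PER1 carries the repressor complex with CRY, and its gene also answers acutely to cAMP and glucocorticoid signals. Per1 stood at 4.66, 7.07 and 5.40 CPM in CON, at 24.9, 20.2 and 25.2 in CPT and at 25.1, 23.1 and 25.2 in AT3. Both injured groups lay far above CON and overlapped each other. The rise was 4.04-fold in CPT (log2 2.02 ± 0.14, edgeR adjusted p = 1.01e-08) and 4.22-fold in AT3 (2.08 ± 0.14, adjusted p = 5.81e-09). AT3 minus CPT was 0.06 (95% interval -0.21 to 0.34, adjusted p = 0.833).

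Per2 (ENSMUSG00000055866, chr1:91415982-91459324, minus strand), the dusk-high paralog, rose less. Its CPM was 7.31, 7.50 and 5.40 in CON, 15.3, 14.0 and 10.1 in CPT and 9.68, 11.5 and 8.70 in AT3. CON lay below both other groups, which overlapped. The rise was 1.94-fold in CPT (log2 0.96 ± 0.17, edgeR adjusted p = 0.000162) and 1.47-fold in AT3 (0.56 ± 0.17, adjusted p = 0.00956). The difference of AT3 from CPT, -0.40 ± 0.16, was not called (adjusted p = 0.167), and was called without CPT replicate 3 (-0.55, adjusted p = 0.0249).

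Per3 (ENSMUSG00000028957, chr4:151003652-151044665, minus strand), a Per paralog that clock oscillation does not need, carries the 2 D-box matches printed above. It stood at 8.43, 5.06 and 4.84 CPM in CON, at 7.24, 6.01 and 4.92 in CPT and at 4.04, 3.26 and 4.48 in AT3. CPT lay inside the CON range, and AT3 lay below both. The CPT difference from CON was -0.00082 ± 0.21 (95% interval -0.46 to 0.46, edgeR adjusted p = 0.998). Per3 was lower in AT3 than in CON by CPM (-0.63 ± 0.22, adjusted p = 0.0176) and was 0.01 higher on log2(TPM + 1). The CPM call was lost without CON replicate 1 (-0.33, adjusted p = 0.159) or AT3 replicate 2 (-0.50, adjusted p = 0.0869). In AT3 against CPT the difference, -0.63 ± 0.21, missed the threshold (adjusted p = 0.0981), and passed it without CPT replicate 3 (-0.75, adjusted p = 0.0382) and with no filter on low counts (-0.63, adjusted p = 0.00621).

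Cry1 (ENSMUSG00000020038, chr10:85131700-85185064, minus strand) encodes the stronger repressor of the CLOCK pair and holds the E-box match nearest to a start. It stood at 4.05, 5.65 and 3.88 CPM in CON, at 6.997, 7.22 and 6.96 in CPT and at 13.2, 14.6 and 14.9 in AT3. The 3 groups formed 3 steps with no overlap. Cry1 rose 1.54-fold in CPT against CON (log2 0.62 ± 0.14, edgeR adjusted p = 0.00164). It was a further 2.01-fold higher in AT3 than in CPT (1.01 ± 0.13, adjusted p = 0.000742), called with any 1 library left out (0.98 to 1.06). It was also called on log2(TPM + 1) (0.84, limma adjusted p = 0.0387), and not on log2(TPM + 0.1) (1.07, adjusted p = 0.0797). AT3 was 3.09-fold above CON (adjusted p = 7.04e-08).

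Cry2 (ENSMUSG00000068742, chr2:92403646-92434043, minus strand) encodes the second cryptochrome. Its CPM was 8.04, 9.62 and 8.16 in CON, 13.3, 13.0 and 12.6 in CPT and 16.9, 15.4 and 13.9 in AT3. CON lay below CPT, and CPT below AT3, without overlap. The rise was 1.503-fold in CPT (log2 0.59 ± 0.12, edgeR adjusted p = 0.000408) and 1.78-fold in AT3 (0.83 ± 0.11, adjusted p = 1.2e-05) against CON. AT3 against CPT was not called (0.24 ± 0.11, adjusted p = 0.215).

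The REV-ERB genes moved apart. Nr1d1 (ENSMUSG00000020889, chr11:98767932-98775333, minus strand) stood at 23.9, 14.1 and 19.4 CPM in CON, at 5.19, 3.77 and 5.77 in CPT and at 1.90, 2.23 and 2.54 in AT3. The groups formed 3 falling steps with no overlap. Nr1d1 fell 3.90-fold in CPT against CON (log2 -1.96 ± 0.19, edgeR adjusted p = 3.62e-07) and 8.56-fold in AT3 against CON (-3.10 ± 0.21, adjusted p = 4.88e-09). It was 2.20-fold lower in AT3 than in CPT (-1.14 ± 0.22, adjusted p = 0.0101). This last call was lost without AT3 replicate 1 (-1.03, adjusted p = 0.0603) and on log2(TPM + 1) (-0.58, limma adjusted p = 0.137). Exons of Nr1d1 and of Thra, a thyroid hormone receptor gene on the opposite strand, overlap over 263 bases. The sources used here do not say whether counting used strand, so reads from that stretch could belong to either gene. Thra was at 10.8 ± 0.521 CPM in CON, 3.67 ± 0.598 in CPT and 4.003 ± 0.659 in AT3. It was lower in CPT than in CON (-1.56 ± 0.15, adjusted p = 3.98e-07) and not called between AT3 and CPT (0.12 ± 0.16, adjusted p = 0.723).

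Nr1d2 (ENSMUSG00000021775, chr14:18204054-18239127, minus strand) encodes REV-ERB beta, which shares its targets with REV-ERB alpha. It stood at 20.1, 16.1 and 17.0 CPM in CON, at 29.0, 32.2 and 23.3 in CPT and at 20.8, 20.4 and 16.7 in AT3. CPT lay above both other groups, and AT3 and CON overlapped. It rose 1.60-fold in CPT against CON (log2 0.67 ± 0.13, edgeR adjusted p = 0.000419) and was 1.46-fold lower in AT3 than in CPT (-0.55 ± 0.13, adjusted p = 0.0267). The latter call was lost without CPT replicate 1 or 2 or any 1 AT3 library (adjusted p 0.0770 to 0.138). AT3 minus CON was 0.13 (95% interval -0.17 to 0.42, adjusted p = 0.42), and on log2(TPM + 1) it was 0.66 with an adjusted p of 0.00381.

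Against untreated liver, AT3 livers had 8 of 10 members called, with 64.4% of all genes called. With 1 library left out the count of members was 6 to 8, and 8253 to 9201 of all tested genes were called. Cry1, Cry2, Per1 and Per2 were higher (31.5% of all genes were) and Nr1d1, Npas2, Per3 and Clock were lower (32.9%). The groups did not overlap for 8 members, against 70.3% of all genes, and the median was 0.16, beside -0.04 for all genes. On log2(TPM + 1) 9 members were called, 7 higher and 2 lower, where the split of all genes was 7017 higher and 1698 lower. The 2 lower on that scale were Npas2 (-0.77, limma adjusted p = 2.52e-06) and Nr1d1 (-1.65, adjusted p = 5.94e-06).

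**Figure D2:**
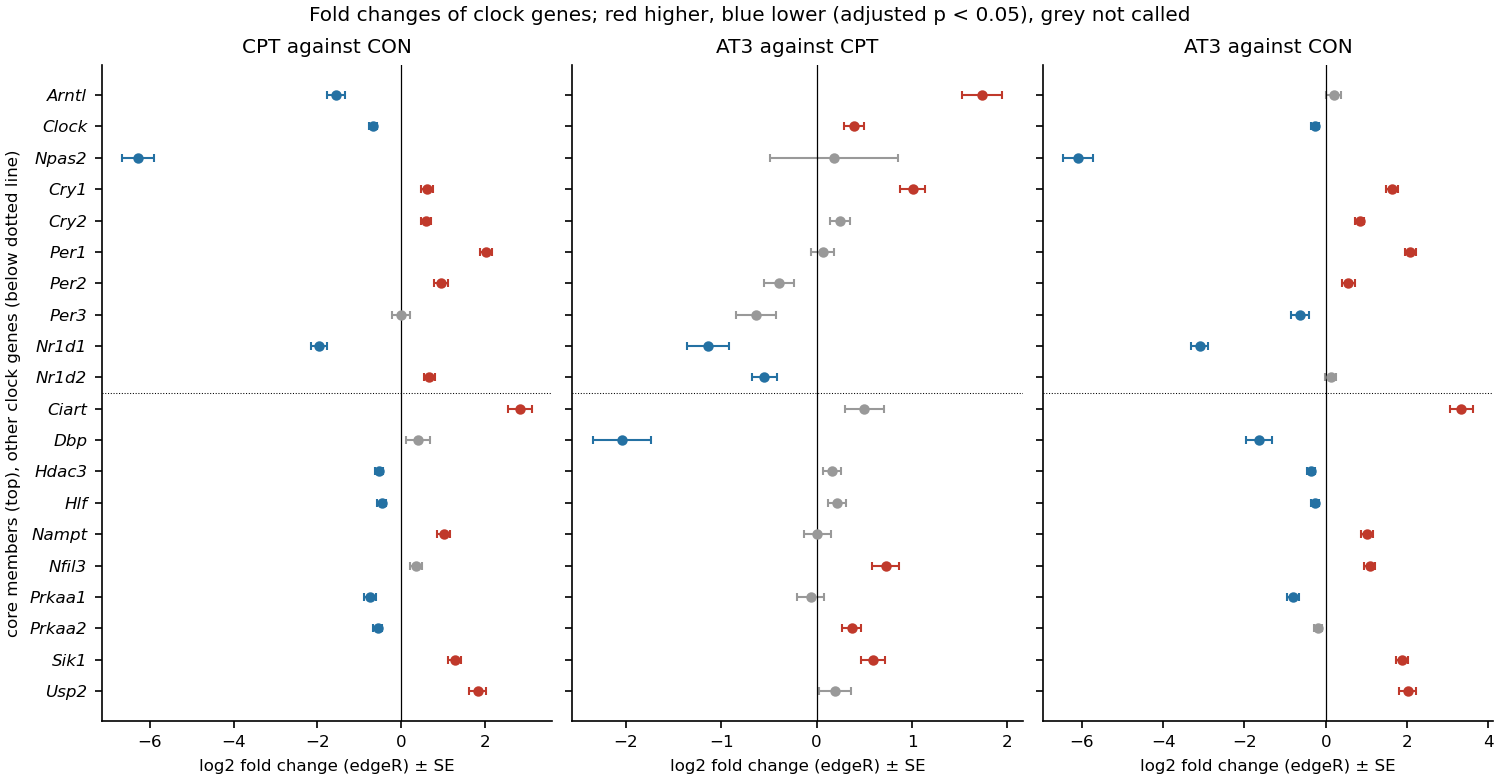
edgeR log2 fold changes ± SE (horizontal axes, which differ in range) of the 10 core clock genes and 10 other clock genes in the 3 comparisons; red is higher, blue lower at an adjusted p under 0.05, and grey not called. Npas2 stands at -6.28 in CPT against CON, Arntl at 1.74 and Dbp at -2.04 in AT3 against CPT.

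Levels were compared between genes per transcript length, in TPM as deposited. In CON, Nr1d1 was highest at 4.90 ± 1.06 TPM, followed by Nr1d2 at 2.68 ± 0.419 and Clock at 1.60 ± 0.202. Arntl, Cry2 and Cry1 followed at 1.46 ± 0.587, 1.42 ± 0.389 and 1.03 ± 0.344, and Per1, Per3, Per2 and Npas2 lay between 0.737 and 0.817. From Clock down, neighbours in that order did not differ beyond their SD. In CPT the order was led by Nr1d2 at 6.16 ± 0.880 and Per1 at 4.95 ± 0.550, and Nr1d1 was at 1.80 ± 0.390. In AT3 it was led by Per1 at 5.49 ± 0.211, Cry1 at 4.93 ± 0.297 and Nr1d2 at 4.82 ± 0.912, with Nr1d1 at 0.863 ± 0.1002. Cry1 and Nr1d2 did not differ beyond their spread there. Nr1d1 went from the first place in CON to the eighth in AT3, and Cry1 from the sixth to the second.

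Whether the members moved as by a shift in phase or a loss of level was examined with summed levels and with ratios between members of 1 library. Sums depend on the scaling between libraries, and the ratios do not. The summed TPM of the 10 members was 16.2 ± 2.38 in CON, 23.9 ± 0.383 in CPT and 27.6 ± 1.40 in AT3, so the sum was not lower after injury. With CPM in place of TPM the log2 difference was 0.13 for CPT against CON, where TPM gave 0.56. For AT3 against CON it was 0.17, where TPM gave 0.77. On log2(TPM + 0.1) the median of all tested genes was itself 0.51 higher in CPT than in CON and 0.57 higher in AT3 than in CON. The dawn-high members Arntl, Npas2 and Clock summed to 3.80 ± 0.922, 2.25 ± 0.270 and 4.74 ± 0.153 TPM. The day-high members Nr1d1, Nr1d2 and Per3 summed to 8.37 ± 1.40, 9.12 ± 0.607 and 6.48 ± 0.730, and the dusk-high members Per1, Per2 and Cry2 to 2.98 ± 0.886, 10.2 ± 0.199 and 11.4 ± 0.596. The dusk-high sum in each injured library lay above every CON library. The dawn-high sum of AT3 against CON was higher by 0.32 on the log2 TPM scale and lower by CPM (-0.38).

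**Figure D3:**
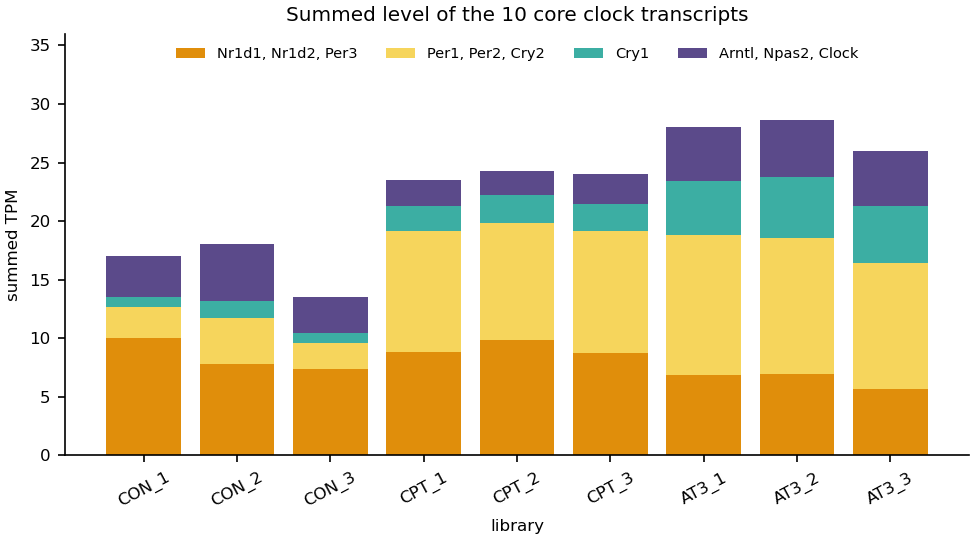
Summed TPM (vertical axis, from 0) of the 10 core clock transcripts in each of the 9 libraries (horizontal axis), stacked by the time of day at which each is known to be high in mouse liver. The whole bar averages 16.2 in CON, 23.9 in CPT and 27.6 in AT3, and the segment of Per1, Per2 and Cry2 widens from 2.98 to 10.2 and 11.4. The median of all tested genes was also higher in CPT and AT3 than in CON on log2(TPM + 0.1), by 0.51 and 0.57.

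Ratios between members of 1 library are given as log2 of TPM and carry no test. Arntl over Nr1d1, members of opposite phase, was -2.25, -0.93 and -2.21 in CON, -1.46, -1.38 and -1.09 in CPT and 1.70, 1.56 and 1.53 in AT3. CON and CPT overlapped, and AT3 lay above both. Arntl over Per2 was 0.95 ± 0.22 in CON, -1.56 ± 0.74 in CPT and 0.60 ± 0.29 in AT3, with CPT below both others. Cry1 over Nr1d1 stood in separate steps, at -2.27 ± 0.69, 0.38 ± 0.36 and 2.52 ± 0.13. Clock over Per3 was 1.06 ± 0.55, 0.38 ± 0.17 and 1.42 ± 0.37, where CON overlapped both other groups.

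Among ratios of paralogs, Cry1 over Cry2 overlapped between CON and CPT, at -0.47 ± 0.10 and -0.46 ± 0.04, and was higher in AT3, at 0.23 ± 0.16. Per1 over Per2 was 0.13 ± 0.34 in CON, below the overlapping values of CPT and AT3, 1.23 ± 0.41 and 1.68 ± 0.27. Clock over Npas2 went from 1.13 ± 0.21 to 6.89 ± 0.52 and 7.06 ± 0.48. Between members of opposite phase, Npas2 over Nr1d2 from -1.87 ± 0.08 to -8.92 ± 0.68 and -8.23 ± 0.29. A pair of further ratios was chosen after the values were seen. Arntl over Npas2, both dawn-high, was 0.94 ± 0.29, 5.82 ± 0.83 and 7.36 ± 0.64. Nr1d1 over Nr1d2, both day-high, was 0.86 ± 0.39, -1.79 ± 0.51 and -2.47 ± 0.42, with CON above and the 2 injured groups overlapping. TPM for Npas2 in injured liver was listed at 0.01 or 0.02, to 2 decimals, so its ratios are coarse. With 1 unstated hour per library, a shift in phase and a change in level cannot be told apart for a single member. The members' summed TPM was not lower in CPT or AT3 than in CON, and Nr1d1 and Nr1d2 went in opposite directions in CPT against CON. Because the sum pools members of opposite phase, it cannot show whether the level of any of them was lost. The part of phase and of level in these values was not tested.

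**Figure D4:**
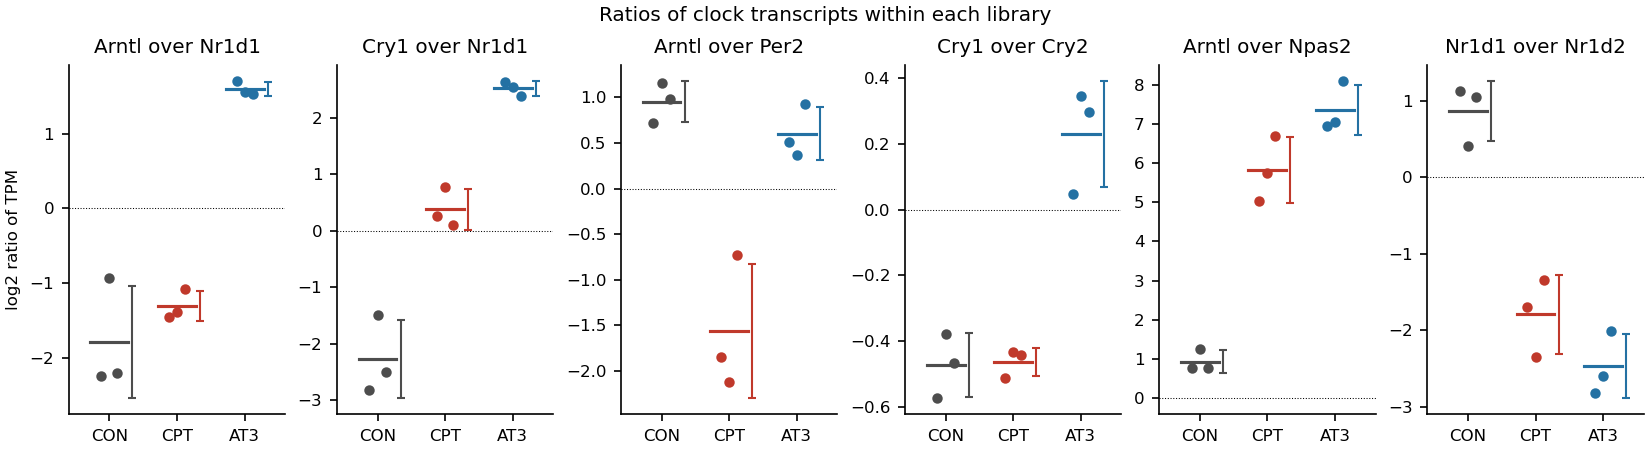
Log2 ratios of TPM between clock transcripts of 1 library (vertical axes, which differ in range) in CON, CPT and AT3; points are libraries, lines group means and bars the SD (n = 3). Arntl over Nr1d1 is above 0 in the AT3 libraries alone, Cry1 over Nr1d1 stands in 3 separate steps, and Arntl over Npas2 and Nr1d1 over Nr1d2 separate CON from both injured groups.

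Libraries of 1 group also differed from each other. The SD of log2 CPM over CON was 0.44 for Per3, 0.39 for Nr1d1, 0.32 for Arntl and 0.30 for Per1, beside a median of 0.19 over all tested genes. Cry1 (0.29) and Per2 (0.26) also lay above that median, and Nr1d2 (0.16), Cry2 (0.14), Clock (0.13) and Npas2 lay below it. CON replicate 1 was highest for Nr1d1, Nr1d2 and Per3, and CON replicate 2 was highest for Arntl, Cry1, Cry2, Per1 and Per2 and lowest for Nr1d1. Npas2 had the smallest SD of the members in CON, 0.09. In AT3 the SD was 0.12 for Arntl, 0.09 for Cry1, 0.07 for Per1 and 0.04 for Clock, beside a median of 0.13. The other members lay above that median in AT3: Npas2 (0.32), Per3 (0.23), Nr1d1 (0.20), Per2 (0.20), Nr1d2 (0.18) and Cry2 (0.14). In CPT, Arntl had the widest spread of the members at 0.42, and Cry1 and Cry2 the narrowest at 0.03 and 0.04, beside a median of 0.20.

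Other genes of the clock pathway were read from a list of 35, made of output factors, kinases, ligases and cofactors, of which 34 were tested. In CPT against CON 8 were higher, 10 were lower and 16 were not called, beside 30.0% of all tested genes higher and 30.8% lower. The median log2 fold change of the list was -0.13, beside -0.02 for all tested genes. On log2(TPM + 1) the same list gave 17 higher and 0 lower, as the split of all genes went from 4107 higher and 4219 lower to 6631 higher and 1604 lower. The genes with the smallest p among those higher were Ciart, Usp2, Sik1 and Nampt. Ciart, a repressor of the CLOCK pair, stood at 1.24, 0.432 and 0.507 CPM in CON, at 4.98, 4.36 and 5.69 in CPT and at 8.43, 6.24 and 6.55 in AT3. It rose by 2.83 ± 0.29 in CPT (edgeR adjusted p = 5.54e-07) without overlap. Usp2, a clock-controlled deubiquitinase gene, rose by 1.82 ± 0.20 (adjusted p = 1.42e-06), Sik1, a cAMP-induced kinase gene, by 1.28 ± 0.15 (adjusted p = 2.73e-06), and Nampt, the NAD salvage enzyme gene, by 1.02 ± 0.15 (adjusted p = 3.01e-05). These 4 were also called higher on both TPM scales.

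The genes with the smallest p among those lower were Hdac3, Prkaa2, Prkaa1 and Hlf. Hdac3, the deacetylase that REV-ERB recruits, fell from 30.1 ± 2.19 to 21.0 ± 0.371 CPM (log2 -0.52 ± 0.09, edgeR adjusted p = 0.000131) and was 0.06 higher on log2(TPM + 1). Prkaa1 and Prkaa2, genes of the AMPK catalytic subunits, were at -0.75 ± 0.14 and -0.56 ± 0.10, and on log2(TPM + 1) at -0.09 and 0.02. Hlf, a PAR bZIP factor related to Dbp, was at -0.47 ± 0.10, and on that scale at 0.14. The median of all genes was 0.29 on that scale and -0.02 by CPM, and all 4 genes lay below the median on both.

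In AT3 against CPT 4 of the 34 were higher and 1 was lower, beside 2.46% and 2.22% of all tested genes, with a median of 0.10. Dbp, the D-box activator and a direct target of the CLOCK pair, was the 1 lower. It stood at 26.5, 9.97 and 8.84 CPM in CON, at 23.5, 18.9 and 16.6 in CPT and at 4.46, 4.54 and 5.34 in AT3. The AT3 libraries lay below all others, and CON replicate 1 lay above the other CON libraries. Dbp was 4.12-fold lower in AT3 than in CPT (log2 -2.04 ± 0.31, edgeR adjusted p = 0.00199), called with any 1 library left out, and was not called in CPT against CON (0.40 ± 0.29, adjusted p = 0.244). Without CON replicate 1 that difference was 1.07 and was called (adjusted p = 7.39e-05). It was also called on log2(TPM + 1) (0.93, limma adjusted p = 0.0190). Nfil3, the repressor at the D-box, was at 16.2, 16.9 and 11.9 CPM in CON, 15.4, 18.8 and 23.4 in CPT and 31.4, 32.9 and 30.9 in AT3, and was higher in AT3 than in CPT by 0.73 ± 0.14 (adjusted p = 0.0108). Sik1 was higher by 0.59 ± 0.13 (adjusted p = 0.0183) and Prkaa2 by 0.37 ± 0.10 (adjusted p = 0.048). The calls of Nfil3, Sik1 and Prkaa2 were each lost when 1 of several libraries was left out, CPT replicate 2 among them for all 3, where they stood at 0.71, 0.56 and 0.37. The number of listed genes called without CPT replicate 2 was 1, Dbp, with 229 of all tested genes called. On log2(TPM + 1) 0 of the list were called in this comparison, where 45 of all tested genes were. In AT3 against CON 11 of the 34 were higher and 8 were lower, beside 31.5% and 32.9% of all tested genes, with Ciart at 3.34 and Nfil3 at 1.08. Dbp was at -1.65, and at -0.97 without CON replicate 1, and was not called on log2(TPM + 1) (-0.69, limma adjusted p = 0.0616). Of the list, 21 were higher and 0 lower on that scale, where all genes split into 7017 higher and 1698 lower.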

How the data were processed

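Liver RNA was sequenced in 9 libraries, 3 each of CON, CPT and AT3. The table of estimated counts per gene (7.96 to 9.55% of all values per library not whole) and the table of TPM (length-scaled transcript abundance) were made by the authors and used as deposited. The aligner and counter, with the annotation counted, were not given in the sources used here. Estimated counts were rounded and tested with edgeR 4.0.16 in R 4.3.3 (TMM scaling, filterByExpr, quasi-likelihood F test, 1 term per group). TMM factors were 0.726 to 0.963 in CON and 1.05 to 1.13 in the other groups. The fit was tested on simulated data. No pair of libraries of 1 group held the same counts within sampling noise. Alternatives were DESeq2 1.42.0, its size factors in edgeR, no filter, limma 3.58.1 with trend on log2(TPM + 1) or log2(TPM + 0.1), only the 6 libraries compared, mitochondrial and the 10 most abundant genes left out, a replicate block, and each library left out. Sums and ratios of TPM were described without a test. Gene positions came from GENCODE M21 (GRCm38), which held 91.3% of the table's gene identifiers, and promoters from RefSeq. The members and lists were chosen with earlier results of these data known. All 10 members are named. From the pathway list, the named genes are the 4 with the smallest p per direction in CPT against CON and those called in AT3 against CPT. For Arntl, Nr1d1 and Per1, the 3 genes of most similar pattern are also named. Of the genes these rules select, 2 are not reported here.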

Additional observations from a re-analysis of the deposited data

How the results depend on the processing

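The count of members called in CPT against CON was 9 in the fits that left out 1 library and 8 on either TPM scale, where Clock was lost. The count of 5 in AT3 against CPT was 2 on log2(TPM + 1) and 1 on log2(TPM + 0.1), and between 2 and 6 with 1 library left out. For the pathway list, the count of 5 in that comparison was 0 and 0 on the TPM scales, 3 with a replicate block, and between 1 and 6 with 1 library left out. Calls over all tested genes moved as well in AT3 against CPT. They were 641 in the main fit, 45 and 32 on the TPM scales, 451 with the replicate block and 172 to 1316 with 1 library left out. The Per3 difference of CPT from CON, -0.00082, was 0.0092 with DESeq2, 0.014 with its size factors, 0.086 with no filter, 0.28 and 0.54 on the TPM scales, 0.0056 with only 6 libraries, 0.012 without mitochondrial and abundant genes, 0.011 with the replicate block and -0.13 to 0.30 with 1 library left out. On log2(TPM + 1) and log2(TPM + 0.1) these differences from CON changed sign: in CPT, Hlf to 0.14 and 0.18, Hdac3 to 0.065 and 0.072 and Prkaa2 to 0.020 and 0.036, and in AT3, Per3 to 0.010 and 0.036 and Clock to 0.27 and 0.39. With 1 library left out, AT3 against CPT ranged from -0.033 to 0.12 for Per1 and from -0.19 to 0.44 for Npas2. With CPM in place of TPM, the log2 differences of summed levels were 0.13 (CPT against CON), 0.041 (AT3 against CPT) and 0.17 (AT3 against CON) for the 10 members. For the dawn-high members they were 0.62 (AT3 against CPT) and -0.38 (AT3 against CON), for Cry1 0.64 (CPT against CON) and 1.65 (AT3 against CON), for the day-high members -0.13 (CPT against CON) and -0.76 (AT3 against CON), and for the dusk-high members 1.23 (CPT against CON), 0.0074 (AT3 against CPT) and 1.24 (AT3 against CON). On log2(TPM + 1) the median of all genes was 0.29 (CPT against CON) and 0.32 (AT3 against CON), beside -0.02 and -0.04 by CPM. The cause of these changes was not tested. Deviations of libraries of the same number in different groups correlated at -0.038 to 0.076. Between CPT and AT3 these correlations were 0.052, 0.076 and 0.067, while pairs of different number lay between -0.058 and -0.018. Between CON and the other groups, pairs of the same number lay between -0.038 and 0.036, beside -0.027 to 0.037 for different numbers. Whether the numbers pair the samples is not settled by these small correlations. The replicate block left 4 members called in AT3 against CPT, with Clock lost. For Npas2, the counts in CPT and AT3 were too few to show a difference between them.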

Other observations

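The genes whose pattern over the 9 libraries was closest to a member were found by the root mean square difference of log2 CPM, each gene centred on its mean, among 11219 tested genes with a mean CPM of at least 1. Closest to Arntl were Gm8893 (difference 0.23), Serpina1a (0.31) and Lpl (0.32). Gm8893 averaged 379 CPM in CON, 99.99 in CPT and 343 in AT3, and Lpl, the gene of lipoprotein lipase, 12.3, 3.09 and 10.8. Among the 3 closest to Nr1d1 were Sod3 (0.27) and Ppfia2 (0.28). Sod3, the extracellular superoxide dismutase gene, averaged 25.6 CPM in CON, 4.80 in CPT and 2.68 in AT3. Closest to Per1 were Arg1 (0.13), Exoc4 (0.15) and Cox7a2 (0.15). Arg1, the urea cycle arginase gene, averaged 512 CPM in CON, 2209 in CPT and 2589 in AT3. No test was made of these likenesses, and the 9 values share the group structure and the library scaling.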
